A study of Danio rerio with 16 samples.

Results

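Cells move by building and taking apart actin filaments, and the genes described here encode the proteins that control this turnover. All features whose symbol begins with 1 of 12 prefixes were taken (arpc, actr2, actr3, capz, cfl, pfn, coro, cotl, tmsb, arhgd, was and wip), which gave 62 of the 25433 genes in the files. The rule itself reads names and no measured value. Of the 62 genes, 58 encode regulators of actin or of its upstream switches, and 4 share no more than the prefix: cflara and cflarb belong to the caspase-8 regulators, and wipi1 and wipi2 to the autophagy genes. These 4 stay in the counts. Every gene had at least 1 UMI (unique molecular identifier, the mark of 1 captured mRNA molecule), 53 had at least 50 UMIs over all cells kept, and 9 had fewer.

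The cells came from whole zebrafish embryos of the line Tg(mpx:Dendra2), in which the mpx promoter drives the photoconvertible protein Dendra2 strongly in neutrophils and weakly in macrophages. No other allele is given, and all groups carry this transgene. Dendra2 in the head was photoconverted from green to red at 34 and 44 hours post fertilization (hpf), so that red cells are enriched in neutrophils of the rostral blood island (RBI-derived) and green cells in those of the caudal hematopoietic tissue (CHT-derived). In the cut groups the caudal fin was transected at 54 hpf, embryos were dissociated 3 h later, and red and green cells were sorted apart, while normal embryos were not cut. Each of the 4 groups (RBI-derived and CHT-derived, either normal or cut) is 1 matrix of 3′ UMI counts shared by 4 deposited entries with no map from cells to entries, so no condition has a replicate and no test was made between conditions. Red and green cells of the same treatment came from the same embryos. Wherever 4 values follow each other, those of RBI-derived normal and cut come first and those of CHT-derived normal and cut come after.

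The Arp2/3 complex starts new filaments as branches on old ones, and it does so when WASp and WAVE proteins, held by partners such as the WIP family, switch it on. Profilin brings actin monomers to the growing end, beta thymosins hold monomers in reserve, capping protein stops growth, and cofilin cuts and dissolves old filaments with the help of coronins. In humans, loss of ARPC1B, WAS, WIPF1 or CORO1A impairs the immune system, and neutrophils rely on this machinery to crawl and to engulf microbes.

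Each library held between 7409098 and 17303744 UMIs, and 7599 of 1121149 barcodes were kept as cells (1196, 1629, 1849 and 2925). Of these, 4042 were neutrophils (lyz, the lysozyme gene, at 1% or more of the UMIs of a cell), 1825 were macrophages (lyz under 1% and at least 3 UMIs of mfap4, mpeg1.1, marco, fgl2a, lgals3bpb and c1qb together) and 1732 were other cells. Median UMIs per cell were 4869, 3532.5, 8900 and 4105 in neutrophils, 6862, 4168.5, 9264 and 5349 in macrophages and 2369, 1549, 3639.5 and 2227 in other cells. Levels are given as CPM, the UMIs of a gene divided by all UMIs of the class sum and multiplied by 1000000. A list of 8 further neutrophil genes outside the rule summed to between 28788 and 44859 CPM in neutrophils against at most 1271 CPM in macrophages. A list of 8 macrophage genes outside the rule summed to between 3277 and 5494 CPM in macrophages against at most 305 CPM in neutrophils. Both lists were chosen with earlier results of these data known, so they are not an independent check of the names. In CHT-derived cut, 195 of 1172 neutrophils (16.6%) also had at least 3 UMIs of the macrophage genes, at a median of 1345 UMIs per cell, against 0, 6 and 8 such cells in the other libraries. For that library, ratios without these cells are given only for the summed list, in the closing section, and for some members. The other cells of RBI-derived cut held the neutrophil list at 7371 CPM, against 381 to 1176 CPM in the remaining libraries, and RBI-derived normal held only 44 macrophages. No more than 25 barcodes occurred in more than 1 library.

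Neutrophils devoted a larger part of their mRNA to these genes than any other class. The 62 genes took 8.26%, 8.14%, 7.17% and 6.30% of all UMIs in neutrophils, 3.73%, 3.14%, 3.60% and 3.00% in macrophages, and 1.22%, 2.32%, 1.45% and 1.2% in other cells. The sums of the 3 classes did not overlap. The other cells are a mixture described below, and parts of it can lie above macrophages. Its cells with epidermal markers held pfn1 at 5428 CPM, against a mean of 4252 CPM in macrophages. tmsb4x, the thymosin beta 4 gene, was the most abundant member and held between 39.5% and 60.9% of the UMIs of the list. Without tmsb4x the list still took 2.74% to 3.45% of UMIs in neutrophils, 1.33% to 1.77% in macrophages and 0.62% to 1.02% in other cells, again without overlap.

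**Figure D1:**
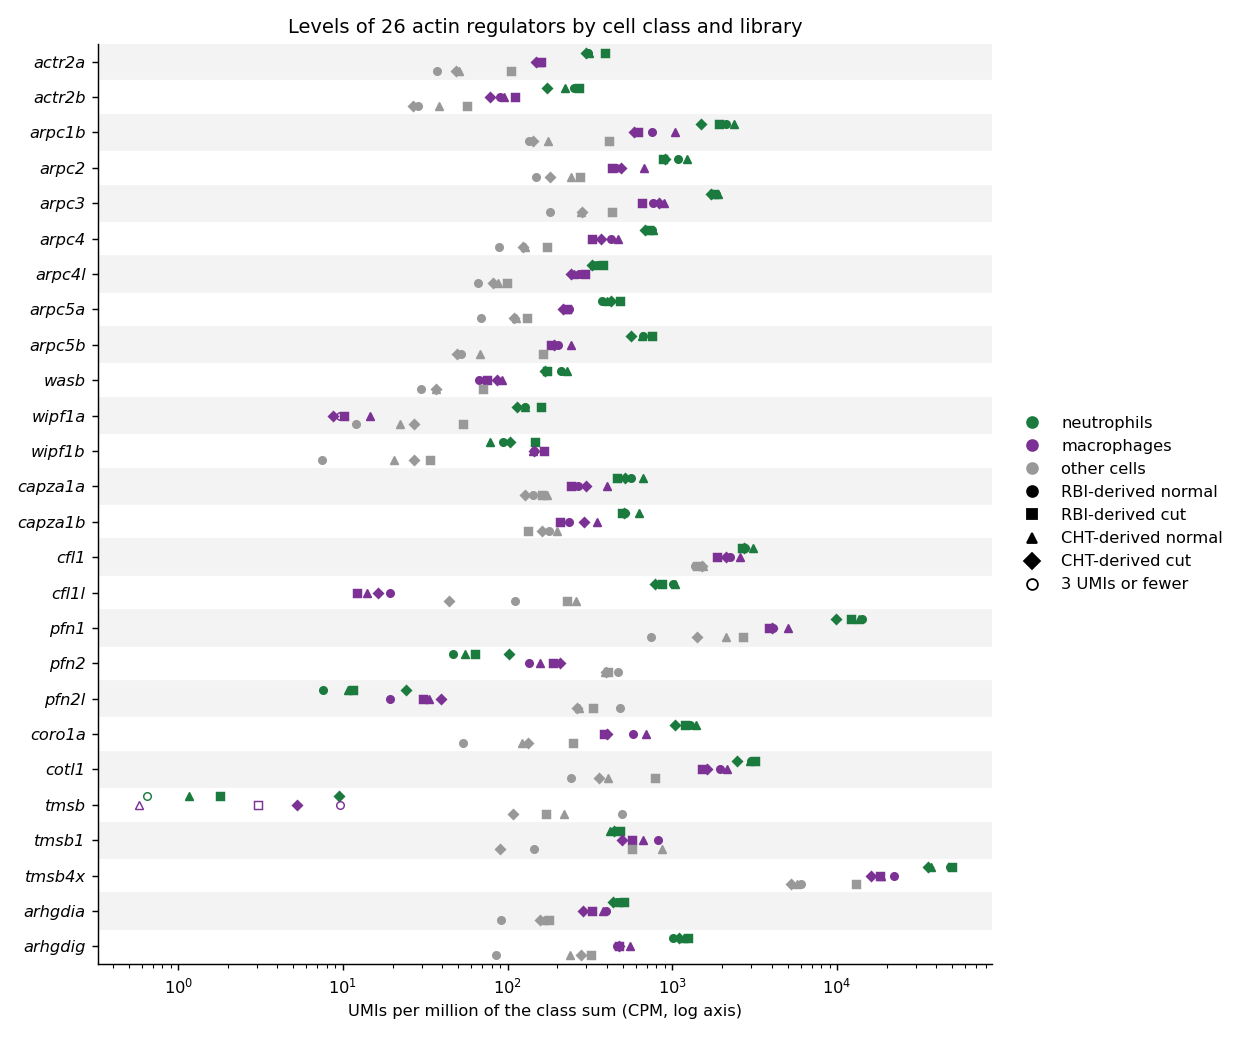
Level of the 26 genes with a mean of at least 100 CPM in at least 1 class, by class (colour) and library (shape). The x axis is the level in CPM on a log scale, open symbols mark 3 UMIs or fewer, and sums under 3 UMIs are drawn at the level of 3 counts. Most rows run from other cells on the left through macrophages to neutrophils on the right, while pfn2, pfn2l and tmsb are highest in other cells.

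To compare classes, UMIs were summed per library and class and tested with edgeR's quasi-likelihood test, with the library as block and Benjamini-Hochberg adjustment over all genes tested. The 4 libraries are 4 conditions, so these tests measure the spread of a class difference over conditions and not over repeated embryos. Between neutrophils and macrophages, 47 of the 62 genes could be tested. Of these, 27 (wipi1 among them) were higher in neutrophils and 6 were lower, while 14 did not pass the threshold of 0.05. The other 15 had fewer than 50 UMIs over both classes. The highest of these in neutrophils was the coronin coro2ba, at a mean of 2.36 CPM against 0.0481 CPM in macrophages. Over all 10293 genes tested, 23.7% were higher and 23.4% lower. The median log2 difference of the tested members was 0.86, against 0.02 over all genes. Scaling mattered: TMM factors, which assume that most genes do not differ, moved the median of all genes by 0.38 on the log2 scale relative to scaling by library totals. With totals alone 25 members were higher and 12 lower, against 14.3% and 35.8% of all genes.

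The Arp2/3 complex was the largest group. Of its 13 tested genes 10 were higher in neutrophils than in macrophages and 1 was lower, where 23.7% and 23.4% of all genes were. The gene arpc1b, which encodes the subunit named above for its part in human immunity, stood at 2113, 1922, 2374 and 1498 CPM in neutrophils and at 753, 616, 1031 and 589 CPM in macrophages. Every neutrophil value lay above every macrophage value, and the log2 difference was 1.83 ± 0.11 (SE, edgeR adjusted p = 6.49e-07, n = 4 libraries). For arpc5b, a gene of the small ARPC5 subunit, the values were 662, 750, 658 and 559 CPM against 202, 184, 243 and 191 CPM, a log2 difference of 2.08 ± 0.14. arpc3 stood at 1831, 1790, 1885 and 1707 CPM in neutrophils against 766, 652, 888 and 833 CPM, and arpc2 at 1082, 879, 1227 and 900 CPM against 452, 433, 675 and 485 CPM. Their groups were again apart, with log2 differences of 1.62 ± 0.12 and 1.41 ± 0.13.

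The other subunits with a duplicated gene showed the same order. arpc4 lay at 684 to 764 CPM in neutrophils and 326 to 467 CPM in macrophages, and its copy arpc4l at 325 to 378 CPM and 243 to 294 CPM, which at 0.80 ± 0.12 was the smallest difference among the subunits that were higher. arpc5a lay at 373 to 483 CPM in neutrophils and 215 to 237 CPM in macrophages. The actin-related protein genes actr2a (298 to 389 against 148 to 160 CPM) and actr2b (172 to 271 against 78.0 to 111 CPM) did not overlap between the classes either. Their partner in the complex, actr3, had between 6.49 and 7.97 CPM in neutrophils, and its call at 1.03 ± 0.27 was lost with scaling by totals (adjusted p = 0.082) and without CHT-derived normal (adjusted p = 0.13).

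Against this pattern, arpc1a, the copy of arpc1b, did not pass the test. It stood at 44.1, 63.7, 57.3 and 60.6 CPM in neutrophils and 76.9, 51.9, 86.6 and 87.9 CPM in macrophages (log2 difference -0.01 ± 0.18, edgeR adjusted p = 0.96). arpc5la, a further relative of the small subunit, was lower in neutrophils, at 0.865 to 1.55 CPM against 3.2 to 8.2 CPM (-2.11 ± 0.35). arpc5lb had lower CPM in neutrophils in all 4 libraries, at 1.56 to 4.66 against 5.10 to 8.27 CPM, which did not pass with TMM factors (-0.62 ± 0.34, adjusted p = 0.16) and did with totals (adjusted p = 0.043). These 3 genes were singled out after their values were seen.

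Among the activators, the copies of the WIP gene differed from each other. wipf1a stood at 127, 160, 128 and 114 CPM in neutrophils and at 9.61, 10.2, 14.6 and 8.75 CPM in macrophages. The ratio was 8.72 to 15.8 in the 4 libraries, and the log2 difference was 3.90 ± 0.18 (edgeR adjusted p = 1.37e-07). Its copy wipf1b went the other way in CPM, at 94.1, 146, 78.5 and 104 CPM in neutrophils against 144, 166, 142 and 144 CPM in macrophages. That difference was -0.13 ± 0.14 with TMM factors and did not pass (adjusted p = 0.48), but with scaling by totals it was -0.53 and did (adjusted p = 0.0092). Both Wiskott-Aldrich genes were higher in neutrophils, wasb at 211, 173, 230 and 168 CPM against 67.3, 75.4, 91.8 and 85.7 CPM, and wasa at 33.4 to 55.8 CPM against 9.61 to 22.1 CPM. The WAVE gene wasf2 lay at 76.8 to 89.1 CPM against 51.9 to 69.6 CPM (0.86 ± 0.14). wipf2b, at 0.166 to 1.17 CPM against 2.50 to 6.41 CPM, was lower (-1.99 ± 0.55). Of the 13 genes in this group 8 were tested. In neutrophils 4 were higher and 1 was lower, where 23.7% and 23.4% of all genes were.

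The WASH complex builds actin on endosomes and not at the cell edge. Its genes were not higher in neutrophils than in macrophages, as most genes of the Arp2/3 complex that it activates were. All 5 WASH genes had lower CPM in neutrophils than in macrophages in every library, and 2 passed the test, where 23.4% of all genes were lower. The share of all genes with lower CPM in every library was not computed. The strumpellin gene washc5 stood at 2.38, 2.01, 1.99 and 3.30 CPM in neutrophils against 12.8, 11.2, 15 and 10.9 CPM, a log2 difference of -1.96 ± 0.28 (edgeR adjusted p = 0.0002). wash1 also passed at -0.85 ± 0.32, with an adjusted p = 0.049, and the call was lost in 7 alternatives, among them DESeq2 (0.13) and the fits without either RBI-derived library or CHT-derived cut (0.077, 0.092 and 0.39). washc2c, washc3 and washc4 did not pass with TMM factors, and all 5 genes passed when scaled by totals. With totals 35.8% of all genes were lower in neutrophils, and the median log2 difference of all genes was -0.35.

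Of the genes that remove filaments, cfl1l had the largest difference between neutrophils and macrophages among the members tested. It is a cofilin gene named for its likeness to cfl1, and it stood at 1013, 865, 1043 and 786 CPM in neutrophils but at 19.2, 12.22, 14 and 16.4 CPM in macrophages. The log2 difference was 6.30 ± 0.19 (edgeR adjusted p = 1.05e-08). Macrophages thus held cfl1l at 1.35% to 2.09% of the neutrophil level, and they held the neutrophil gene lyz, which the rule limits in macrophages, at 0.57% to 1.43%. The neutrophil genes mpx and npsn, outside the rule, stood in macrophages at 0.953% to 2.87% and 0.507% to 1.91% of the neutrophil level. The part of neutrophil RNA in the macrophage level of cfl1l was not tested beyond these values. After each cell was thinned to 1000 UMIs, cfl1l was found in 47.2% to 57.6% of neutrophils and in at most 1.70% of macrophages. In RBI-derived normal 0 of 44 thinned macrophages had it, which at this depth allows a share of thinned cells with a UMI of up to 6.82% and sets no limit on cells that express the gene. In unthinned cells the shares were 75.6% to 91.6% and 5.22% to 11.4%. cfl1 differed less, at 2754, 2646, 3101 and 2739 CPM in neutrophils and 2223, 1876, 2571 and 2107 CPM in macrophages (0.78 ± 0.08). cfl2, the muscle cofilin, lay at 16.1 to 22.5 CPM in neutrophils and 3.06 to 7.84 CPM in macrophages.

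The coronin gene coro1a stood at 1276, 1190, 1389 and 1032 CPM in neutrophils and 580, 383, 694 and 402 CPM in macrophages (1.69 ± 0.11). cotl1, whose product resembles coactosin and binds filaments, stood at 3022, 3175, 2971 and 2473 CPM against 1938, 1521, 2140 and 1612 CPM (1.11 ± 0.11). Neither overlapped between the classes. Among the 10 genes of this group 4 were tested, and coro1ca and coro7 did not pass.

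The monomer-binding genes were the most abundant. tmsb4x stood at 48678, 49614, 37176 and 35605 CPM in neutrophils and at 22143, 18132, 18364 and 15957 CPM in macrophages (1.60 ± 0.07, edgeR adjusted p = 9.68e-08). pfn1, the most abundant profilin gene here, stood at 14262, 12218, 13643 and 9873 CPM against 4110, 3855, 5030 and 4015 CPM (1.96 ± 0.12). The other profilins ran the opposite way. pfn2 stood at 46.7, 63.3, 55.3 and 102 CPM in neutrophils against 135, 189, 157 and 207 CPM in macrophages (-0.99 ± 0.13), and pfn2l at 7.57, 11.6, 10.8 and 24.1 CPM against 19.2, 30.6, 33.1 and 39.4 CPM (-0.84 ± 0.19). The thymosin gene tmsb1 was also lower in CPM in neutrophils in all 4 libraries, at 470, 482, 421 and 444 CPM against 814, 568, 668 and 491 CPM. With TMM factors its difference was -0.05 ± 0.11 (adjusted p = 0.76) and with totals -0.46 (adjusted p = 0.016). tmsb, at no more than 9.52 CPM in either class, passed as higher in neutrophils (1.24 ± 0.40, adjusted p = 0.027), a call lost in 6 alternatives, among them DESeq2, stricter class limits and the fits without RBI-derived cut or CHT-derived normal.

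The capping genes and the arhgd genes followed the Arp2/3 complex. capza1a lay at 459 to 661 CPM in neutrophils against 241 to 404 CPM in macrophages, and capza1b at 497 to 628 against 207 to 348 CPM. arhgdig stood at 1006, 1236, 1172 and 1095 CPM against 458, 476, 553 and 474 CPM (1.61 ± 0.10), and arhgdia at 462, 511, 473 and 439 CPM against 397, 325, 377 and 288 CPM (0.86 ± 0.11). Beta-subunit gene capzb was seen at no more than 10.2 CPM in any of these sums and did not pass.

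**Figure D2:**
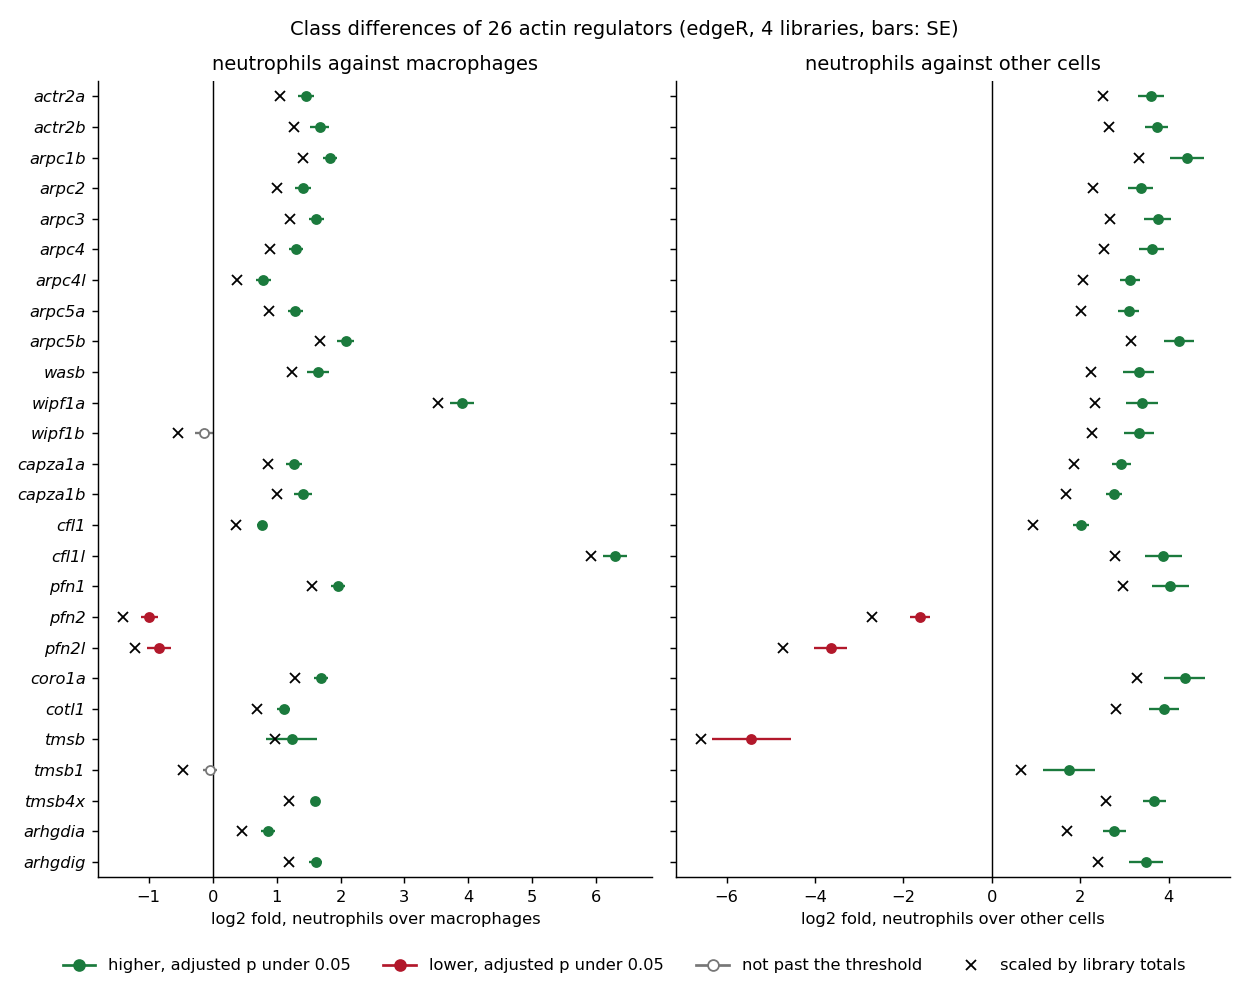
Log2 differences of the 26 genes between neutrophils and macrophages (left) and between neutrophils and other cells (right). Points are edgeR estimates with TMM factors and bars their standard errors over 4 libraries, and crosses are the estimates with scaling by library totals. cfl1l at 6.30 and wipf1a at 3.90 lie far to the right on the left panel, and every cross lies to the left of its point.

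Against the other cells, a mixture described below, 52 members could be tested. Of these 36 (cflara among them) were higher in neutrophils and 11 were lower, against 32.9% and 34.5% of 12257 genes, and the median log2 difference was 2.08 against -0.05 over all genes. Scaling by totals moved the median of all genes by 1.08, and it left 26 members higher and 12 lower against 15.6% and 56.8% of all genes. In CPM, 28 of the 52 were higher in neutrophils in all 4 libraries and 12 were lower in all 4. The shares of all genes with such an order were not computed. cflara was called higher at a mean of 17.2 CPM in neutrophils against 18.6 CPM in other cells. The difference was large for coro1a, at 53.9, 249, 122 and 133 CPM in other cells (4.36 ± 0.46), for arpc1b, at 135, 411, 177 and 143 CPM (4.41 ± 0.39), and for pfn1, at 737, 2694, 2109 and 1412 CPM (4.03 ± 0.42). RBI-derived cut was the highest of the other-cell sums for all 3 genes, as it was for the neutrophil list. Without that library the log2 differences were 4.73, 4.80 and 4.34, and 34 members were higher and 11 lower. The shares of all genes in that fit were not computed. tmsb1 also passed (1.73 ± 0.59, edgeR adjusted p = 0.034), though its other-cell values of 145, 572, 869 and 90.4 CPM lay on both sides of the neutrophil values, and the call was lost without RBI-derived normal (0.14), without CHT-derived cut (0.17) and with library totals (0.33).

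Macrophages shared part of this difference. Against other cells, 29 of 50 tested members were higher in macrophages and 13 were lower, where 27.2% and 34.3% of 12037 genes were. With library totals 27 were higher and 14 lower, against 18.8% and 45.4% of all genes. The log2 difference from other cells was 2.35 ± 0.33 for arpc1b, 2.45 ± 0.39 for coro1a and 2.56 ± 0.28 for cotl1. All 5 WASH complex genes were higher in macrophages than in other cells, from 1.28 ± 0.32 for washc4 to 2.87 ± 0.47 for wash1. This was shared with neutrophils, where 4 of the 5 were higher than in other cells and 0 lower, against 32.9% and 34.5% of all genes. With library totals 2 were higher in neutrophils, against 15.6% of all genes. In macrophages wipf1b was also higher than in other cells (3.26 ± 0.31), where it stood at 7.48, 34.0, 20.5 and 27.2 CPM. For cfl1l the sign turned, since macrophages were lower than other cells (-2.68 ± 0.50, edgeR adjusted p = 0.001). Of the cfl1l UMIs of other cells, 90.7% lay in the cells with epidermal markers, described below, at 1657 CPM. Elsewhere in the other cells cfl1l stood at 0 to 26.7 CPM by marker list, where macrophages held 12.22 to 19.2 CPM. The call for pfn1 (1.86 ± 0.24) was lost when 5% of each sum was taken off in the profile of near-empty droplets (adjusted p = 0.10).

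Some members were higher in the other cells. Values of tmsb in them were 492, 170, 219 and 108 CPM, against at most 9.52 CPM in neutrophils and 5.29 CPM in macrophages. The neutrophil difference was -5.44 ± 0.90 (edgeR adjusted p = 0.0016). tmsb2 lay at 27.9 to 70.3 CPM in other cells and at most 1.17 CPM elsewhere, and the coronins coro1b (22.7 to 68.8 CPM) and coro1cb (25.5 to 105 CPM) were at most 3.2 CPM elsewhere. The activators wasf3b, at 27.2 to 52.4 CPM, and wasla, an N-WASp gene, at 5.98 to 11.3 CPM, were also lower in neutrophils than in other cells. The copy of wasla, waslb, had more UMIs and was called higher in neutrophils with TMM factors, although its mean CPM was lower there. The means of waslb were 15.4 CPM in neutrophils, 17.3 CPM in macrophages and 17.6 CPM in other cells. Of the 10 activator genes tested, 7 were higher in neutrophils than in other cells and 3 lower, against 32.9% and 34.5% of all genes. With library totals 4 were higher and 3 lower, against 15.6% and 56.8% of all genes. pfn2 and pfn2l stood at 393 to 468 CPM and 265 to 482 CPM in other cells, above every neutrophil and macrophage value.

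The other cells were divided by marker lists to see where these genes lay. A cell was put with the list that held most of its UMIs if there were at least 3. This gave 807 neural, 166 progenitor, 123 mesenchyme, 95 epidermis, 67 erythroid, 37 muscle, 21 endothelium and 14 thrombocyte cells, and 402 cells with no list. The neural cells held 495 CPM of tmsb, 118 CPM of tmsb2, 663 CPM of pfn2, 572 CPM of pfn2l and 166 CPM of coro1cb. The muscle cells held 386 CPM of cfl2, 434 CPM of capza1b and 455 CPM of tmsb, and 25 CPM of arpc1b. The progenitor cells, with 383 CPM of arpc1b, 293 CPM of coro1a and 644 CPM of arhgdig, were above the neural cells for all 3 genes. The progenitor list does not set these cells apart from leukocytes, as it summed to 786 to 1046 CPM in neutrophils and 679 to 1099 CPM in macrophages against 136 to 411 CPM in other cells. These are sums over all libraries with no spread between samples.

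The epidermis cells held cfl1l and tmsb1 at levels above every leukocyte sum. This also held for other members, among them pfn2 (400 CPM), pfn2l (157 CPM) and tmsb (81.5 CPM). cfl1l stood at 1657 CPM there (1078 UMIs) and tmsb1 at 5272 CPM (3430 UMIs), and pfn1 at 5428 CPM was the highest of any list. In neutrophils the epidermal list summed to 1259 to 1982 CPM against 99.3 to 184 CPM in macrophages. That sum was almost all icn (1175 to 1972 CPM), while the keratin genes krt4, krt5 and cyt1 were each at 0 to 25.5 CPM in neutrophils. tmsb1 outnumbered cfl1l in the UMIs of epidermis cells, and cfl1l outnumbered tmsb1 in neutrophils of every library. The part of epidermal RNA in the neutrophil level of cfl1l was not tested beyond these values. Because icn counts towards the epidermal list, cells with neutrophil RNA could enter the epidermis cells. In the other cells of RBI-derived cut, icn stood at 1703 CPM and krt4 at 839 CPM. The part of such cells in the epidermis values was not tested.

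Because many of these genes are duplicated in zebrafish, the share of each copy among its family was computed from UMIs. The share is not divided by transcript length, so it is read only between classes and not between genes. cfl1l made 26.9%, 24.6%, 25.2% and 22.3% of cfl1 and cfl1l in neutrophils, 0.857%, 0.647%, 0.543% and 0.773% in macrophages, and 65.5% in epidermis cells. wipf1a made 57.4%, 52.3%, 61.9% and 52.4% of the wipf1 UMIs in neutrophils but 6.25%, 5.78%, 9.35% and 5.71% in macrophages. The exact 95% intervals of neutrophils and macrophages did not meet in any library for either gene. These intervals cover counting error only.

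In several families the share of 1 gene was highest in neutrophils, lower in macrophages and lowest in neural cells, and arpc1b, pfn1 and coro1a are given here. arpc1b made 96.1% to 98.0% of the arpc1 UMIs in neutrophils, 87.0% to 92.3% in macrophages and 29.1% (24.5% to 34.0%) in neural cells. pfn1 made 98.7% to 99.6% of the profilin UMIs, then 94.2% to 96.4%, then 17.0% (15.7% to 18.3%). coro1a made 95.3% to 97.3% of the UMIs of coro1a, coro1b, coro1ca and coro1cb, then 87.4% to 93.1%, then 8.70% (6.79% to 10.9%). arpc5b over arpc5a moved less, from 56.7% to 64.0% in neutrophils to 44.7% to 51.4% in macrophages, and the share of capza1a over capza1b lay at 48.0% to 52.1% and 50.7% to 53.9%.

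**Figure D3:**
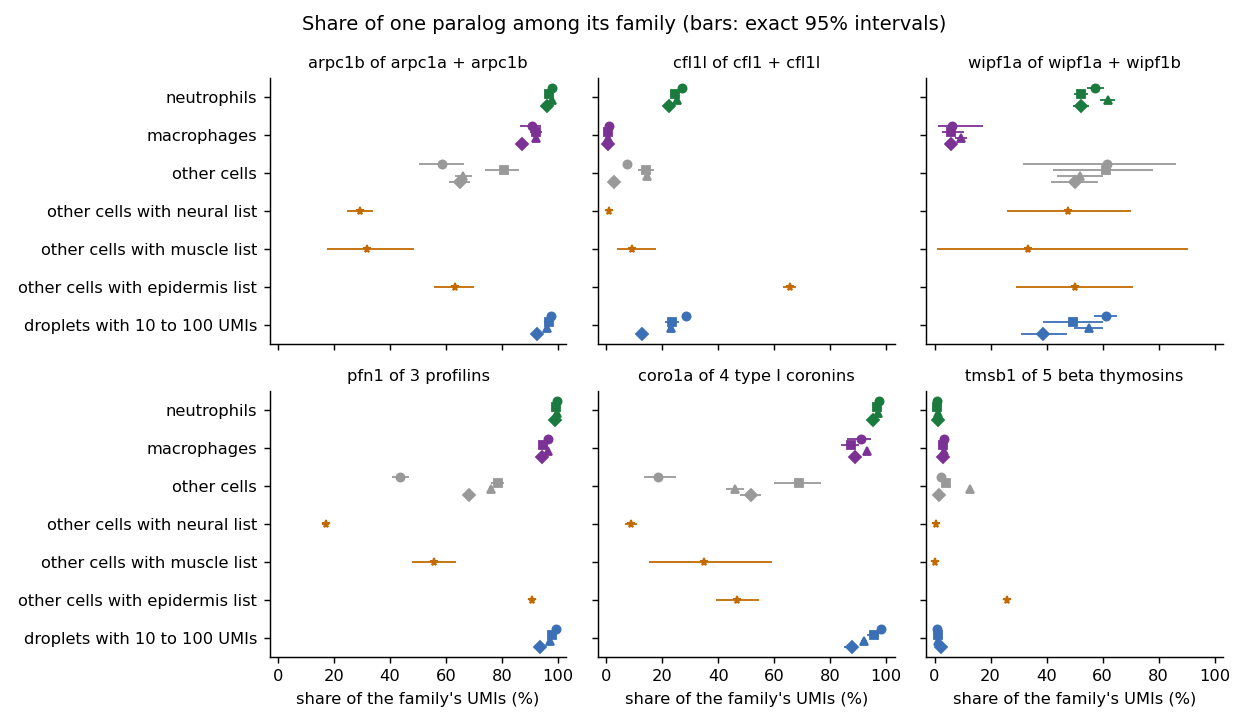
Share of 1 gene among the UMIs of its family, in percent, by class, by marker list within the other cells (stars, all libraries summed) and in near-empty droplets of 10 to 100 UMIs. Symbols are libraries as in the plot of levels and bars are exact 95% intervals of counting error. cfl1l and wipf1a are low in macrophages, and the neural cells lie left of both leukocyte classes for arpc1b, pfn1 and coro1a.

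Next, the neutrophils of the 4 conditions were set side by side. Each ratio below compares 1 library with 1 other and its exact 95% interval covers counting error only, so no difference between conditions was tested. A gene is called past the fold where its CPM differed by at least 1.5 times among genes with at least 50 UMIs.

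RBI-derived and CHT-derived neutrophils of normal embryos were close. The summed level of the list was higher in RBI-derived cells by a log2 ratio of 0.20 (0.20 to 0.21), and without tmsb4x it was -0.03 (-0.04 to -0.02). tmsb4x alone had a ratio of 0.39 (0.38 to 0.40). The ratio of the sum was 0.09 after thinning to 1000 UMIs. Of 38 members 1 was past the fold upwards (7.4% of all genes were) and 1 downwards (13%). These were cflara, which has no more than the prefix in common, and washc4, at 4.54 against 7.64 CPM with an interval that includes 0.

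After transection the distance was wider. The log2 ratio of the sum, RBI-derived over CHT-derived, was 0.37 (0.36 to 0.38), and 0.22 (0.21 to 0.23) without tmsb4x. With cells past the cell cycle limit left out it was 0.21. Of 39 members 3 were past the fold upwards (8.79% of all genes) and 4 downwards (18.3%). actr2b, at 271 against 172 CPM, had a ratio of 0.65 (0.53 to 0.78), and washc2c and capzb were the others that were higher. pfn2 (-0.69), pfn2l (-1.06), tmsb (-2.42) and washc4 (-0.68) were lower. All ratios of single members in this comparison include the mixed cells of CHT-derived cut. Between the same sums the neural list stood at 14.7 against 67.0 CPM, the muscle list at 47.9 against 281 CPM and the macrophage list at 87.1 against 305 CPM, and the part of these lists in the ratios was not tested. tmsb4x had a ratio of 0.48 (0.47 to 0.49), pfn1 of 0.31 (0.29 to 0.32), arpc1b of 0.36 (0.32 to 0.40) and cotl1 of 0.36 (0.33 to 0.39), all within 1.5 times.

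In RBI-derived neutrophils the sum after transection was close to that before in CPM, with a log2 ratio of -0.02 (-0.03 to -0.01) that turned to 0.10 after thinning. The ratio was -0.09 (-0.10 to -0.08) without tmsb4x and -0.17 with TMM factors, while the median over all genes was 0.14. The erythroid list went from 10.6 to 778 CPM between these neutrophil sums, and from 37.7 to 270 CPM between the CHT-derived ones, and its part in the ratios was not tested. Of 38 members 3 were past the fold upwards (13.9% of all genes) and 0 downwards (6.22%). wipf1b went from 94.1 to 146 CPM (0.64, 0.46 to 0.81), but with TMM factors its ratio was 0.49 and below the fold. Also past the fold were capzb, at 4.76 and 8.69 CPM, and pfn2l, at 7.57 and 11.6 CPM, whose interval includes 0. Within the fold, pfn1 had a ratio of -0.22 (-0.24 to -0.21), arpc2 of -0.30 (-0.36 to -0.24), arpc5a of 0.37 (0.28 to 0.47) and arhgdig of 0.30 (0.24 to 0.35).

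In CHT-derived neutrophils the summed level was lower after transection. It had a log2 ratio of -0.19 (-0.20 to -0.18), and -0.34 (-0.35 to -0.33) without tmsb4x, while the median over all genes was 0.14. Without the cells past the cell cycle limit the ratio was -0.08, and with TMM factors -0.33. Of 39 members 3 were past the fold downwards (6.77% of all genes) and 5 upwards (17.7%), so the share of members that were lower was near that of all genes. arpc1b went from 2374 to 1498 CPM (-0.66, -0.70 to -0.62), wasa from 52.1 to 33.4 CPM and washc2c from 23.7 to 14.8 CPM. pfn1 (-0.47), coro1a (-0.43), arpc2 (-0.45), wasb (-0.45) and cfl1l (-0.41) were lower by less than the fold. tmsb4x was at -0.06 (-0.07 to -0.05).

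Of the 5 members that were higher, 3 were genes with higher levels in the other cells. pfn2 went from 55.3 to 102 CPM (0.89, 0.69 to 1.09), pfn2l from 10.8 to 24.1 CPM (1.16, 0.71 to 1.61) and tmsb from 1.16 to 9.52 CPM (3.03, 1.88 to 4.42), while waslb and wipf2a had ratios of 0.63 and 0.71. Between the same sums the neural list went from 16.6 to 67.0 CPM, the muscle list from 60.1 to 281 CPM and the macrophage list from 75.9 to 305 CPM. Without the mixed cells and the cells of highest doublet score the 3 ratios were 0.87, 1.28 and 2.47. The part of these lists in the ratios was not tested otherwise. The ratio of arpc1b was -0.65 without those cells, and -0.51, below the fold, without the cells past the cell cycle limit.

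In macrophages of the same pair of libraries the sum of the list had a log2 ratio of -0.27 (-0.28 to -0.26). Of 41 members 6 were past the fold downwards (16.8% of all genes) and 1 upwards (10.3%), so the share of members that were lower did not exceed that of all genes. arpc1b went from 1031 to 589 CPM (-0.81, -0.87 to -0.74) and coro1a from 694 to 402 CPM (-0.79, -0.86 to -0.71). wasa, washc2c, wipf1a and arpc5lb were lower at no more than 39.1 CPM, and cfl2 was higher, at 3.46 and 7.84 CPM, where the muscle list went from 46.4 to 630 CPM. The part of muscle RNA in the cfl2 ratio was not tested. Neutrophils and macrophages here come from the same libraries, of which CHT-derived normal is the deepest, and after thinning arpc1b had ratios of -0.71 and -0.74 in the 2 classes. RBI-derived and CHT-derived macrophages of cut embryos differed by 0.07 (0.05 to 0.09) in the sum, and by -0.0011 after 5% free RNA was taken off. Of 38 members 1 was past the fold upwards and 1 downwards, and the shares of all genes are not given for this pair. The median log2 ratio was 0.02 over these members and -0.01 over all genes. The lower member was arpc1a, at 51.9 against 87.9 CPM, with a ratio of -0.76 (-1.20 to -0.34).

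**Figure D4:**
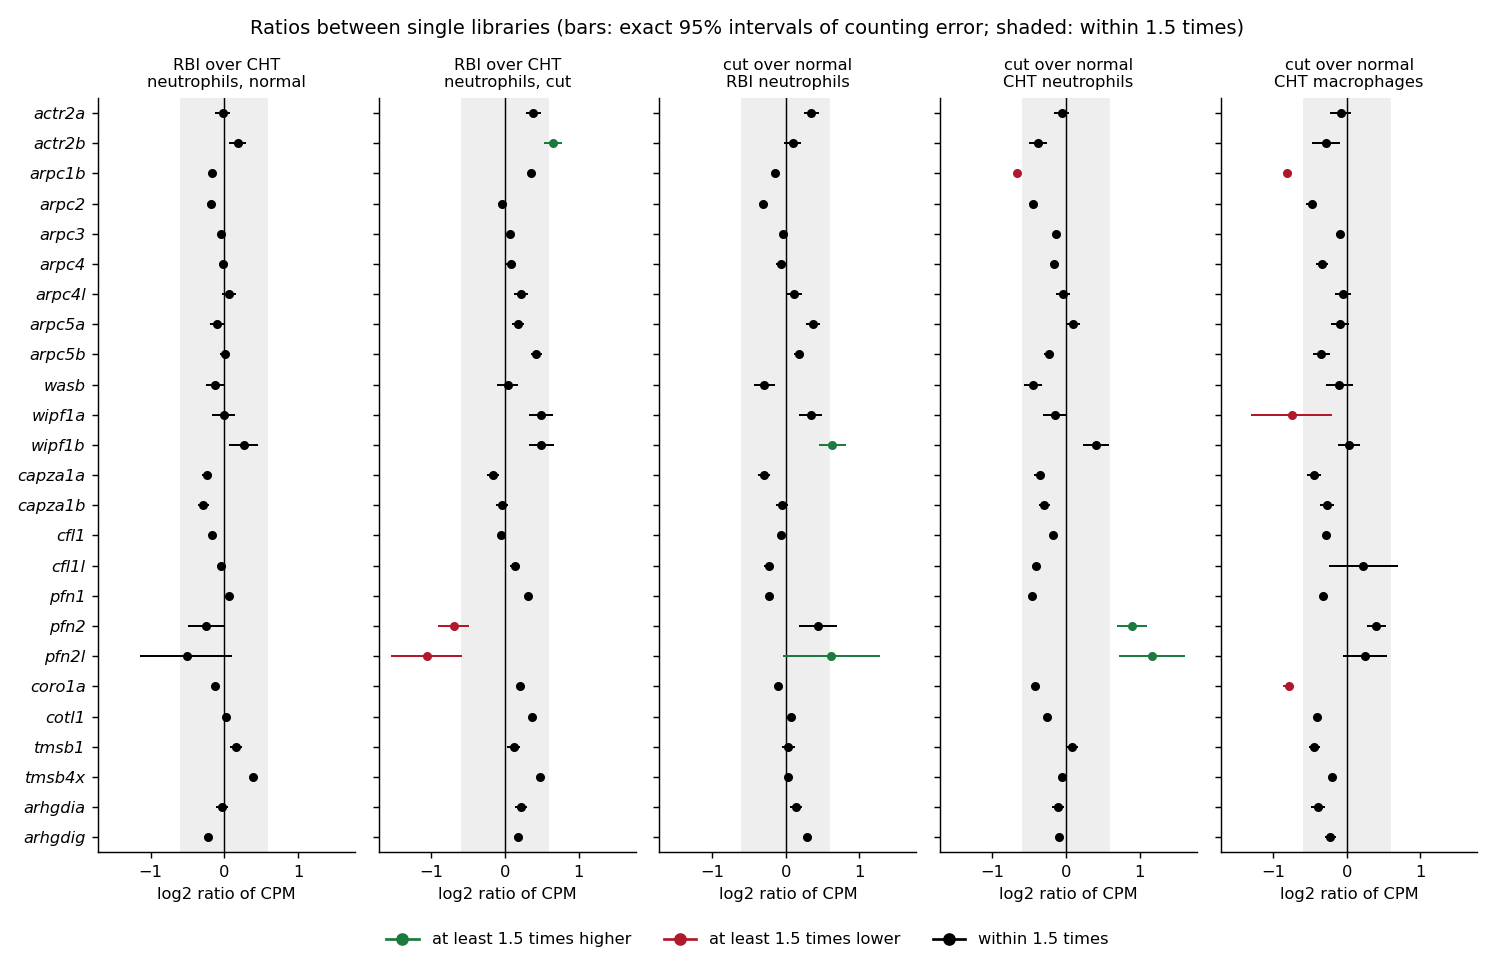
Log2 ratios of CPM between single libraries for 25 genes (tmsb, with few UMIs, is left out). Bars are exact 95% intervals of counting error and the shaded band marks ratios within 1.5 times. Most points lie in the band, arpc1b lies below it in CHT-derived neutrophils and macrophages, and pfn2 and pfn2l lie above it in CHT-derived neutrophils.

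Neutrophils were also divided by a list of 28 cell cycle genes, with a limit of at least 3 UMIs and 0.1% of the UMIs of a cell. As 2510 of 4042 neutrophils passed and hmgb2a alone held 79.5% of the UMIs of the list, cycling is not read from it. The cells past the limit had a median of 4633.5 UMIs, against 3596 in the remaining neutrophils. The part of depth in the differences was not tested. Of 43 members tested with edgeR, 0 were higher in the cells past the limit (6.51% of 8301 genes were) and 5 were lower (6.40%). None was higher at an unadjusted p under 0.05 either, nor with DESeq2. The 5 were cfl2 (-0.86 ± 0.18), tmsb1 (-0.34 ± 0.07), arpc5b (-0.26 ± 0.07), arpc1b (-0.25 ± 0.07) and pfn1 (-0.16 ± 0.05). The count of lower members lay between 2 (without CHT-derived normal or CHT-derived cut) and 10 (without RBI-derived normal) when a library was left out. The share of all genes that were lower in those fits was not computed.

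With hmgb2a taken off the list, a setting added after the data were seen, 569 neutrophils passed the limit. Of the 43 members 16 were then lower (8.49% of all genes) and 0 higher (9.11%), with 1 higher at an unadjusted p under 0.05. The median log2 difference of the members was -0.24 against -0.01 over all genes. arpc5b was lower by -0.50, cfl1l by -0.44 (edgeR adjusted p = 5.4e-05), arpc1b by -0.42 and tmsb4x by -0.28 on the log2 scale. The cells past this limit had a median of 7035 UMIs, against 4169.5 over all neutrophils, and the part of depth in this difference was not tested.

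Of the other genes of actin and motility, a list of 85 was drawn up from known roles and 77 had a row in the files. Between neutrophils and macrophages 32 of 61 tested genes were higher in neutrophils and 8 were lower, with a median log2 difference of 0.45, where 23.7% and 23.4% of all genes were and their median was 0.02. With totals the counts were 20 and 13, against 14.3% and 35.8% of all genes. Both beta-actin genes were higher in neutrophils, actb2 at a mean of 24421 against 11591 CPM (1.47 ± 0.12) and actb1 at 7946 against 3384 CPM (1.64 ± 0.12), as was rac2, a small GTPase of blood cells (1.00 ± 0.13). As with the members, some close relatives parted. vaspa, which lengthens filaments, was higher in neutrophils at a mean of 293 against 25.1 CPM (3.92 ± 0.16), and its relative evla was lower at 0.823 against 16.4 CPM (-3.75 ± 0.43). Of the same family, vaspb did not pass, at 102 against 107 CPM (0.32 ± 0.13, edgeR adjusted p = 0.064). enah was higher in neutrophils, at 14.9 against 5.29 CPM (1.82 ± 0.30). The scinderin-like gene scinlb, of the gelsolin family that cuts filaments, lay at 1151 against 126 CPM (3.62 ± 0.12), and cyfip2, of the WAVE regulatory complex, at 63.6 against 2.40 CPM (5.04 ± 0.29). rac1a (2.92 against 38.4 CPM, -3.41 ± 0.29), gmfb, whose product takes branches apart (7.24 against 68.1 CPM, -2.96 ± 0.35), and ctnna1 (3.60 against 42.9 CPM, -3.14 ± 0.22) were lower in neutrophils. All of these except vaspb (-0.08) kept their sign with scaling by totals.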

How the data were processed

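The authors deposited raw UMI counts per gene and barcode, 1 matrix per group, made with Cell Ranger 7.1.0 by the matrix headers and, per the submitters' processing notes, on GRCz11. They applied no normalization or filter in these files, and no column of values was left unused. The red and green libraries were told apart by their labels, with RE read as red and GR as green.

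Cells had at least 1000 UMIs, 300 to 7500 genes and at most 10% mitochondrial UMIs. Doublets were not removed. Library size limits precision, and intervals cover counting error only. UMIs were summed per library and class and genes with at least 50 UMIs were tested with edgeR 4.0.16 (TMM factors, library as block), with DESeq2 1.42.0 as alternative. In data simulated for 200 changed genes per comparison, all genes with a log2 fold of 2 were recovered (100%), and of those with a log2 fold of 1, 49% between neutrophils and macrophages, 60% between neutrophils and other cells, 41% between macrophages and other cells and 76% for the cell cycle limit. The changed genes were drawn from those with at least 200 UMIs, and the same dispersion was set for every gene. These rates therefore do not cover members with fewer UMIs or with a wider spread between libraries. A pseudocount of 0.5 UMIs entered the ratios over all genes.

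Values in all libraries are given for the 26 members with a mean of at least 100 CPM in a class, and for others where their fold stood out in their group. The members and lists were chosen with earlier results of these data known. Protein and promoter sequences were not used here. Analyses used Python 3.11.15 and R 4.3.3.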

Additional observations from a re-analysis of the deposited data

How the results depend on the processing

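The counts of members higher or lower between classes stayed within 1.5 times under DESeq2, no filter on low counts, stricter class limits, mixed cells left out, a minimum of 2000 UMIs and free RNA subtracted, except those named here. With library totals 12 members, not 6, were lower in neutrophils than in macrophages, and against other cells arpc1a turned to -0.70 (from 0.38) and coro1ca to -0.35 (from 0.74). When a library was left out, the members higher in neutrophils numbered 24 to 27 against macrophages and 27 to 34 against other cells. Shares of all genes were not computed for the fits with a library left out. Members lower past the cell cycle limit numbered 5, then 3 with DESeq2, 2 with no filter, 11 with at least 2000 UMIs, 2 to 10 without 1 library and 16 with hmgb2a left off the list, where arpc5a turned to -0.24. Of these cell cycle counts, only the first and the last have a share of all genes, given above. For the others it was not computed, so they cannot be set against all genes.

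Between conditions no paired analysis was possible because each is 1 matrix with no replicate, while the class tests had the library as block throughout. The log2 ratios of the summed list are given in the order RBI-derived over CHT-derived neutrophils (normal, cut), cut over normal neutrophils (RBI-derived, CHT-derived), cut over normal CHT-derived macrophages and RBI-derived over CHT-derived macrophages of cut embryos. TMM factors gave 0.30, 0.46, -0.17, -0.33, -0.17 and 0.11. Cells with at least 2000 UMIs gave 0.24, 0.34, -0.052 and -0.14 for neutrophils. Thinning gave 0.092, 0.45, 0.10 (reversed), -0.25 and -0.29, with pfn2l at -0.049 in cut over normal RBI-derived neutrophils. Stricter class limits gave 0.20, 0.36 and -0.18 for both RBI-derived over CHT-derived and the CHT-derived cut over normal neutrophil ratios, and 0.048 for the last. Without mixed cells those neutrophil ratios were 0.19, 0.33 and -0.16. Subtracting free RNA gave 0.18, 0.35, 0.011 (reversed), -0.16, -0.21 and -0.0011 (reversed). Leaving out cells past the cell cycle limit gave 0.092, 0.21, 0.036 (reversed), -0.082 and -0.29, and with hmgb2a left off the list 0.16, 0.35 and -0.00027 for the first 3 and -0.28 for CHT-derived macrophages. The cause of these shifts was not tested. With 1 library per condition, none of these ratios has a replicate check.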
